A study of Homo sapiens with 24 samples.

Results

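The genes described here are 10 components of the Notch pathway, taken by symbol from a table of 28307 genes: the receptors NOTCH1, NOTCH2 and NOTCH3, the ligands JAG1, JAG2 and DLL1, and the transcriptional targets HES1, HES4, HEY1 and NRARP. All 10 were in the table. Their messenger RNA was followed in 24 libraries from a breast cancer cell line, SUM159, and a colon cancer cell line, SW620. Cells were treated in adherent culture for 30 h with Nifuroxazide (NIF), a nitrofuran antibiotic, or with its vehicle DMSO. They were sorted by the ALDEFLUOR assay, in which cells with high aldehyde dehydrogenase activity become bright. The methods for RNA sequencing do not state plainly whether the sort came before or after the treatment. The bright cells (ALDHbr) carry the label cancer stem cells (ALDHpos) and the cells with low activity (ALDHneg) the label non-cancer stem cells. Each of the 8 combinations of line, population and treatment had 3 libraries, which the study describes as independent experiments. The labels name no engineered allele in either line, and each cancer type is represented by a single line. The stock of NIF was 10 mM and the final concentration is not analysed here. The question addressed was how NIF changed RNA in sorted cells, and how ALDHbr cells differed from ALDHneg cells.

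In Notch signalling a ligand on the surface of a cell (the Jagged and Delta-like proteins) binds a receptor on a neighbouring cell. The bound receptor is cut by an ADAM protease and by gamma-secretase, and its intracellular domain enters the nucleus, where it joins the DNA-binding protein RBPJ and a Mastermind coactivator. HES and HEY genes, which encode repressors of the bHLH family, and NRARP, which encodes a small ankyrin repeat protein that limits the activity of the intracellular domain, are among the genes switched on. The pathway is known for keeping progenitor cells of the colon crypt undifferentiated and for its part in breast cancer stem cells.

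Promoter sequences of 8 of the 10 genes were found in RefSeq (GRCh38.p14). They were searched on both strands for the RBPJ core TGGGAA, in a window from 250 bases before the start to 50 bases after it. HES1 and HES4 were the members with this core, and they are shown with JAG1, the member with the largest difference under NIF. The bases before the start are printed from 5′ to 3′ on the strand of the gene, and capitals mark the RBPJ core.
HES1, chr3:194135898-194136147, plus strand: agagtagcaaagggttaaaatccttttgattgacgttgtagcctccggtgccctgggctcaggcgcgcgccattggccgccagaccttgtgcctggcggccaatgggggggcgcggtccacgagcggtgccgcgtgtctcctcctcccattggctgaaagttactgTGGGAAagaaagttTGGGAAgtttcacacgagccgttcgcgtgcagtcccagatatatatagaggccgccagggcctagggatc
HES4, chr1:1000098-1000347, minus strand: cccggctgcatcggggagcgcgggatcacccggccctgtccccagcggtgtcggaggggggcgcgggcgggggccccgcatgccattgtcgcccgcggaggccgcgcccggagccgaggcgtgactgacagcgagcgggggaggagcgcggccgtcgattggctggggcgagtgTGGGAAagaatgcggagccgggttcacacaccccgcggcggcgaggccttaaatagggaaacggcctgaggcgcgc
JAG1, chr20:10674000-10674249, minus strand: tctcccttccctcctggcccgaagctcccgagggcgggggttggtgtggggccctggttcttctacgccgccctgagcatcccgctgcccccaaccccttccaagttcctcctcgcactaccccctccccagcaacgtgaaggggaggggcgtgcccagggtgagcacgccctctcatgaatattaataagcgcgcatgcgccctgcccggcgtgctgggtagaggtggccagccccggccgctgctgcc

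The HES1 window held 2 cores, at positions -84 to -79 and -70 to -65 from the start, both on the strand of the gene. The HES4 window held 1, at -76 to -71, and no core was found in the windows of NOTCH1, NOTCH2, NOTCH3, JAG1, JAG2 or NRARP. Among 35116 RefSeq promoters of the same length, 24% held at least 1 core and 3.8% at least 2. The motif CACNAG, an N-box that HES proteins can bind, occurred 4 times in the HES1 window, 2 times in that of NOTCH1 and 1 time in those of NOTCH2, NOTCH3 and NRARP, against at least 1 in 38% of all promoters. These 2 NOTCH1 matches overlap each other. The STAT site TTCNNNGAA was found in the NOTCH3 window, at 2 to 10, and in 7.66% of all promoters. A match is a description of the letters and not a measured site.

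Sequencing depth was similar across the study, with 30253187 to 43127948 counts in genes per library. The sort was visible in ALDH1A1, the aldehyde dehydrogenase named by the study: in SUM159 under DMSO it lay between 104 and 153 CPM (counts scaled to the size of the library) in ALDHbr cells and between 0.419 and 0.543 CPM in ALDHneg cells. In SW620 the same contrast was 1257 to 1357 CPM against 884 to 922 CPM, a difference of 1.46-fold. ALDHneg cells of SW620 therefore carried abundant ALDH1A1 RNA. The line labels were checked on markers: 10 colon epithelial genes summed to 1910 to 2490 CPM in SW620 and to 0.258 to 8.32 CPM in SUM159, and 10 mesenchymal genes to 6.76 to 34.6 CPM and to 6760 to 9090 CPM. The colon transcription factor CDX2 was low, at 0.188 to 2 CPM in SW620. Of 10 leukocyte and 10 endothelial genes, 1 or 2 of each list exceeded 1 CPM in any condition. The leukocyte sum of 1200 to 1590 CPM in SW620 was carried by LYZ (1200 to 1580 CPM), which gut epithelium can express, while PTPRC, the defining leukocyte gene, stayed at or below 0.0261 CPM there. The endothelial sums, 19.1 to 31.1 CPM in SUM159 and 33.5 to 44.7 CPM in SW620, were carried by ERG and by ESAM.

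Levels were compared between genes per length, as CPM per kb of merged exons, in ALDHbr cells under DMSO. In SUM159 the target HES4 and the ligand JAG2 led, with HES4 at 27.8 ± 4.53 and JAG2 at 26.4 ± 0.732 CPM per kb (SD, n = 3), which could not be ordered because their libraries overlapped. HES1 (15.2 ± 3.95) and NOTCH2 (14.5 ± 0.215) came next, also with overlapping libraries. NOTCH1 stood at 8.49 ± 0.221, above JAG1 at 6.03 ± 0.259 and NRARP at 5.35 ± 0.825, whose libraries overlapped. DLL1 (1 ± 0.207), HEY1 (0.455 ± 0.0533) and NOTCH3 (0.322 ± 0.0407) were the 3 lowest and did not overlap each other. NOTCH2 was thus the receptor with the highest level and JAG2 the ligand with the highest level in SUM159.

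In SW620 the order was different. NRARP had the highest level, 17.4 ± 1.24 CPM per kb (SD, n = 3), followed by HES1 at 14.5 ± 1.39 and HES4 at 10.5 ± 2.25, with no overlap between neighbours. NOTCH1 (6.04 ± 1.2), JAG1 (5.87 ± 0.871) and NOTCH2 (4.24 ± 1.47) formed a middle group whose libraries overlapped. JAG2 was at 1.67 ± 0.246, and NOTCH3 (0.0967 ± 0.0148), HEY1 (0.0545 ± 0.0141) and DLL1 (0.0378 ± 0.0207) were close to the detection limit. The libraries of HEY1 and DLL1 overlapped. In number of counts these 3 genes had 17 to 70, 5 to 36 and 0 to 8 per SW620 library.

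**Figure D1:**
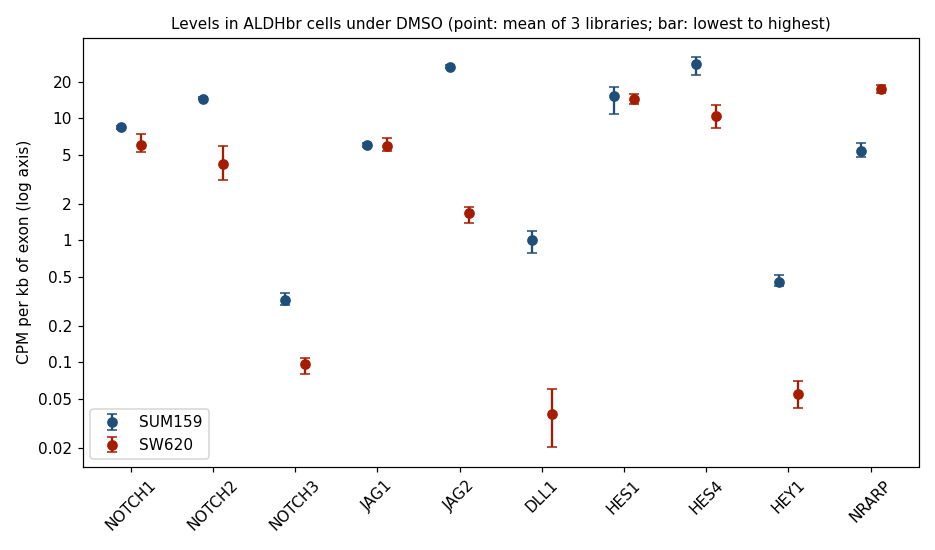
Level of each gene in ALDHbr cells under DMSO, in CPM per kb of merged exons on a log axis, with the mean of 3 libraries as a point and the lowest and highest library as a bar. JAG2, NOTCH1, NOTCH2, NOTCH3, DLL1, HES4 and HEY1 sit higher in SUM159 (blue). NRARP sits higher in SW620 (red), and the ranges of JAG1 and HES1 overlap between the lines.

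Tested in a fit of all 24 libraries, 8 of the 10 genes differed between the lines in ALDHbr cells under DMSO, against 81.3% of all 16271 genes tested. NRARP was 3.26-fold higher in SW620 (log2 difference 1.70, SE 0.113). The other 7 were lower there, from 1.41-fold for NOTCH1 to 15.8-fold for JAG2 (log2 -3.98, SE 0.0955) and 26.2-fold for DLL1, which passed the filter on low counts through SUM159 and so had to differ. NOTCH2 (3.44-fold), NOTCH3 (3.30-fold), HES4 (2.63-fold) and HEY1 (8.18-fold) lay between them. JAG1 (log2 -0.04, 95% interval -0.24 to 0.16, edgeR quasi-likelihood adjusted p = 0.718) and HES1 (-0.06, -0.60 to 0.47, adjusted p = 0.821) did not pass. The share of members that differed was close to that of all genes.

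**Figure D2:**
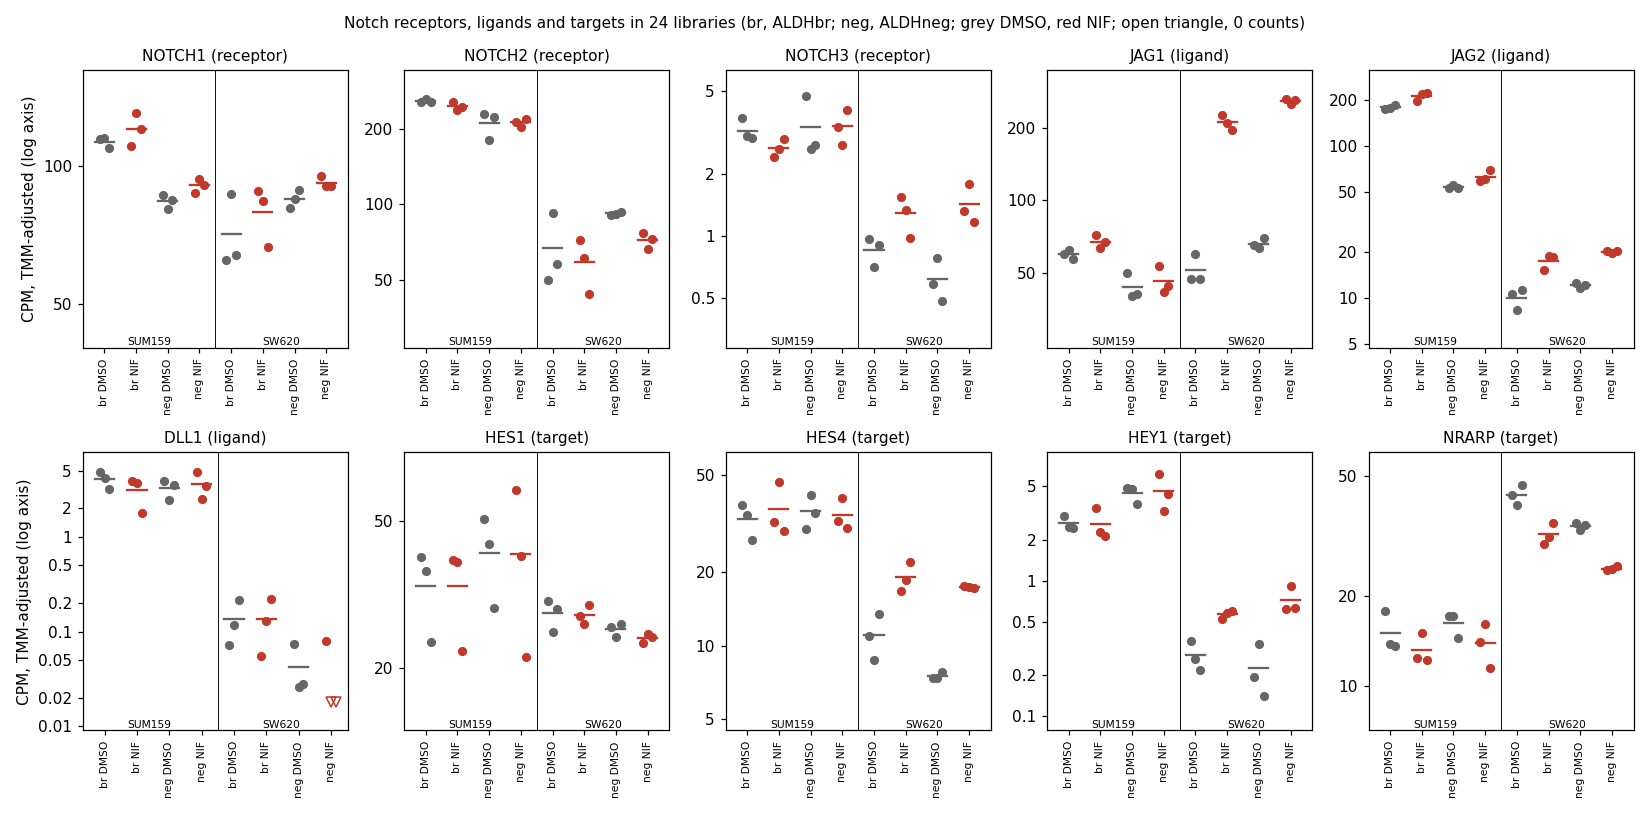
CPM of each gene in each library (points) on a log axis, with the mean of the 3 libraries of a condition as a line (grey, DMSO; red, NIF; open triangles, libraries with 0 counts). JAG1 rises in all 6 SW620 libraries with NIF, JAG2 is split between ALDHbr and ALDHneg in SUM159, and the lowest HES1 value of every SUM159 condition belongs to replicate 3.

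In SW620 NIF went with more JAG1 and JAG2 and less NRARP. In ALDHbr cells 5 of the 9 genes tested changed, with JAG1, JAG2, HES4 and HEY1 higher and NRARP lower, and in ALDHneg cells 6 of 9, with NOTCH3 also higher. The background was large: 43.3% of all genes tested changed in ALDHbr cells and 45.1% in ALDHneg cells. The median log2 fold change of the 9 genes was 0.58 in ALDHbr cells and 0.74 in ALDHneg cells, against -0.01 over all genes in both. The 73 other pathway genes tested, described below, had medians of 0.02 and -0.04. The members had been chosen with earlier results of these data known. DLL1 had too few counts to be tested in SW620. The sum of the 10 mesenchymal markers moved with NIF in SW620, from 6.76 to 8.59 CPM under DMSO to 21.5 to 23.9 CPM under NIF in ALDHbr cells, and from 15 to 16.3 CPM to 32.3 to 34.6 CPM in ALDHneg cells. In these libraries 1 or 2 of the 10 exceeded 1 CPM, and VIM stayed at or below 0.354 CPM. Its part in the SW620 results was not tested. These are sums over sorted cells, in which fewer cells with a transcript and less RNA per cell cannot be told apart.

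JAG1, a Notch ligand encoded on chromosome 20 (chr20:10637684-10673999, minus strand), showed the largest change. In SW620 ALDHbr cells its CPM was 46.9, 59.9 and 47.2 under DMSO and 227, 211 and 198 under NIF. The ALDHneg cells had 65.2, 63.5 and 69.5 under DMSO and 266, 251 and 263 under NIF. Every library with NIF lay above every library with DMSO, by a wide gap in both populations. The fold change was 4.13 in ALDHbr cells (log2 2.04, SE 0.0878, edgeR quasi-likelihood adjusted p = 4.78e-10) and 3.94 in ALDHneg cells (log2 1.98, SE 0.087, adjusted p = 4.85e-10).

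JAG2, the other Jagged ligand (chr14:105140995-105168776, minus strand), moved the same way from a lower level. Its CPM in ALDHbr cells was 10.6, 8.36 and 11.2 under DMSO and 15.3, 18.8 and 18.6 under NIF. Its CPM in ALDHneg cells was 12.5, 11.6 and 12.3 under DMSO and 20.5, 19.9 and 20.5 under NIF. The groups did not overlap, and JAG2 was 1.74-fold higher with NIF in ALDHbr cells (log2 0.80, SE 0.105, adjusted p = 2.98e-05) and 1.67-fold higher in ALDHneg cells (log2 0.74, SE 0.102, adjusted p = 4.12e-05). DLL1, the Delta-like ligand (chr6:170282206-170291078), had counts of 3, 4 and 8 in ALDHbr cells under DMSO and of 2, 4 and 7 under NIF. In ALDHneg cells it had 3, 1 and 1 counts under DMSO and 3, 0 and 0 under NIF, where a count of 0 allows up to 0.0743 and 0.0747 CPM by counting error alone. No difference in DLL1 was detectable at this depth.

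The receptors differed among themselves. NOTCH3 (chr19:15159038-15200995, minus strand) was scarce in SW620, at 0.963, 0.706 and 0.899 CPM in ALDHbr cells under DMSO and 1.55, 1.33 and 0.9745 CPM under NIF. ALDHneg cells had 0.586, 0.783 and 0.482 CPM under DMSO and 1.31, 1.78 and 1.17 CPM under NIF. It rose 2.29-fold in ALDHneg cells (log2 1.19, SE 0.253, adjusted p = 0.00151). The difference in ALDHbr cells, 0.58 (SE 0.249), missed the threshold at an adjusted p of 0.0754. Its groups lay barely apart in CPM, with 0.963 the highest under DMSO and 0.9745 the lowest under NIF. The counts overlapped, at 24 to 40 under DMSO and 31 to 56 under NIF. Without the third NIF library of SW620 ALDHbr cells the ALDHbr difference passed (log2 0.74, adjusted p = 0.0332). Over all genes 6068 of 14166 were called without that library.

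NOTCH1 (chr9:136494433-136546048, minus strand) had 62.3, 87.1 and 63.9 CPM in SW620 ALDHbr cells under DMSO and 88.2, 83.8 and 66.4 CPM under NIF. The ALDHneg libraries had 81.1, 84.7 and 88.7 CPM under DMSO and 95.2, 90.6 and 90.6 CPM under NIF. Its log2 change was 0.16 (95% interval -0.09 to 0.42, adjusted p = 0.296) and 0.12 (-0.13 to 0.37, adjusted p = 0.444), and the groups overlapped in ALDHbr cells but not in ALDHneg cells. A fit of the 2 ALDHneg groups alone called it, at 0.13 with an adjusted p of 0.01, and called 8245 of all 13613 genes tested. Without DMSO replicate 2 of ALDHbr cells, the call in that population changed, with a log2 change of 0.35 and an adjusted p of 0.0045. Over all genes 7136 of 14147 were called with NIF in ALDHbr cells without that library.

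NOTCH2 (chr1:119911553-120069662, minus strand) had 49.6, 92.6 and 57.7 CPM in ALDHbr cells under DMSO and 71.9, 61.04 and 43.8 CPM under NIF. The values in ALDHneg cells were 90.9, 91.7 and 93.1 CPM under DMSO and 76.6, 66.4 and 73.0 CPM under NIF. The log2 changes were -0.18 (adjusted p = 0.498) and -0.35 (95% interval -0.77 to 0.06, adjusted p = 0.156). In ALDHneg cells all NIF libraries were below all DMSO libraries, and a fit of those 2 groups alone gave -0.34 with an adjusted p of 2e-07. The same fit called 8245 of all 13613 genes tested. NOTCH2 has near-identical partial copies, and NOTCH2NLA, NOTCH2NLB, NOTCH2NLC and NOTCH2NLR were each listed at 0.463 to 4.65 CPM in SW620. How reads shared with these copies were counted is not given in the sources used here.

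The SW620 ALDHbr libraries varied together at these long receptors. Relative to the mean of the 12 SW620 libraries, on a log2 scale, NOTCH1 was at -0.38 and -0.34 and NOTCH2 at -0.50 and -0.28 in DMSO replicates 1 and 3. DMSO replicate 2 was at 0.10 and 0.40, and NIF replicate 3 at -0.29 and -0.68. The median of 1797 genes with at least 10 kb of merged exons was -0.186, 0.056 and -0.152 in the 3 DMSO libraries and 0.066, -0.004 and -0.143 in the 3 NIF libraries. The median of 884 genes with at most 2 kb went the other way, at 0.22, -0.073 and 0.184 and at -0.107, -0.006 and 0.132. In ALDHneg libraries the long genes stayed between 0.037 and 0.091. NOTCH1 has 12.53 kb and NOTCH2 16.74 kb of merged exons. The part of this variation in the NOTCH1 and NOTCH2 results was not tested.

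**Figure D3:**
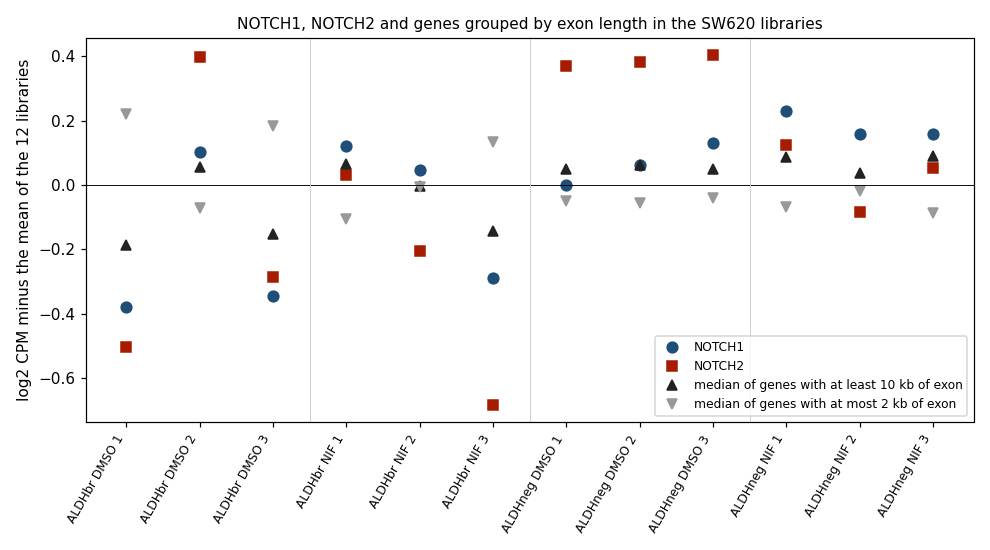
Log2 CPM minus the mean of the 12 libraries (vertical axis) for NOTCH1 (circles), NOTCH2 (squares) and the medians of genes with at least 10 kb (upward triangles) or at most 2 kb (downward triangles) of merged exons, for each SW620 library (horizontal axis). NOTCH1, NOTCH2 and the long genes are low in ALDHbr DMSO replicates 1 and 3 and in ALDHbr NIF replicate 3, where the short genes are high.

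Among the targets, HES1 was the one with no called change in SW620. HES1, the bHLH repressor most often read as Notch output (chr3:194136148-194138732, plus strand), had 30.5, 25.1 and 28.8 CPM in ALDHbr cells under DMSO and 27.8, 26.3 and 29.6 CPM under NIF. ALDHneg cells had 25.9, 24.3 and 26.3 CPM under DMSO and 23.4, 24.7 and 24.2 CPM under NIF. The groups overlapped in both populations. The log2 changes were -0.01 (95% interval -0.18 to 0.15, edgeR adjusted p = 0.905) and -0.08 (-0.24 to 0.08, adjusted p = 0.416). The upper ends of these intervals lay below the changes of HES4, 0.79 and 1.21. Their lower ends lay above the changes of NRARP, -0.44 and -0.47. HES1 was the target with 2 RBPJ cores in the promoter window printed above, and their part in its RNA level was not tested.

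HES4, a related repressor (chr1:998964-1000097, minus strand) whose printed promoter holds 1 core, rose. Its CPM in SW620 ALDHbr cells was 11.0, 8.74 and 13.5 under DMSO and 16.7, 18.6 and 22.1 under NIF. The ALDHneg values were 7.396, 7.41 and 7.79 under DMSO and 17.6, 17.4 and 17.2 under NIF. The groups did not overlap, and the fold change was 1.72 in ALDHbr cells (log2 0.79, SE 0.13, adjusted p = 0.000238) and 2.31 in ALDHneg cells (log2 1.21, SE 0.133, adjusted p = 5.12e-06).

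HEY1, a further bHLH repressor, rose from very few counts. In SW620 ALDHbr cells it had 15, 9 and 8 counts under DMSO and 19, 18 and 19 under NIF, or 0.361, 0.265 and 0.218 CPM and 0.525, 0.583 and 0.597 CPM. The ALDHneg libraries had 8, 13 and 5 counts under DMSO and 23, 36 and 25 under NIF. The groups did not overlap. The change was 1.98-fold in ALDHbr cells (log2 0.99, SE 0.334, adjusted p = 0.0278) and 3.16-fold in ALDHneg cells (log2 1.66, SE 0.326, adjusted p = 0.000852). The ALDHbr call was lost on leaving out DMSO replicate 2 or 3 or NIF replicate 2 or 3, with adjusted p-values up to 0.0989.

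NRARP, the feedback inhibitor (chr9:137299631-137302271, minus strand), fell. In SW620 ALDHbr cells it had 43.1, 40.1 and 46.5 CPM under DMSO and 29.7, 31.3 and 34.9 CPM under NIF. NRARP in ALDHneg cells was at 34.8, 33.1 and 34.4 CPM under DMSO and 24.3, 24.4 and 25.1 CPM under NIF. No NIF library reached a DMSO library of its population. NRARP was 1.35-fold lower in ALDHbr cells (log2 -0.44, SE 0.0698, adjusted p = 0.000177) and 1.39-fold lower in ALDHneg cells (log2 -0.47, SE 0.0704, adjusted p = 8.72e-05). The 4 targets thus divided into 2 that rose in both populations, 1 that fell and 1 that did not pass the test. ALDH1A1, for comparison, fell by 0.46 in ALDHbr cells and by 0.71 in ALDHneg cells of SW620 on the log2 scale.

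**Figure D4:**
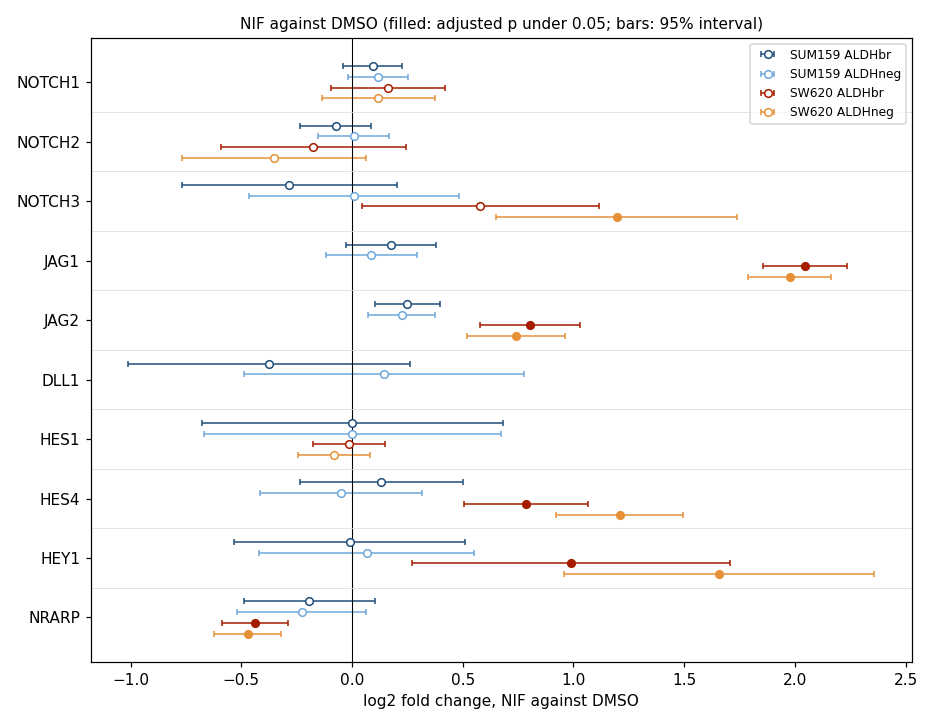
Log2 fold change of each gene with NIF against DMSO (horizontal axis) in the 4 sorted populations, with 95% intervals as bars and filled points where the adjusted p was under 0.05. JAG1 is near 2 in both SW620 populations, JAG2 is above 0 in all 4, HES1 is near 0 in all 4, and no SUM159 point is filled.

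In SUM159 none of the 10 genes passed the test with NIF by edgeR's quasi-likelihood fit, against 3.16% of all genes in ALDHbr cells and 3.3% in ALDHneg cells. At an unadjusted p under 0.05 there was 1 in each population, JAG2 in both. DESeq2 also called 1 in each, against 875 and 862 of all 14953 genes tested. JAG2 had 177, 179 and 186 CPM in ALDHbr cells under DMSO and 197, 220 and 226 CPM under NIF. The ALDHneg libraries had 53.4, 55.7 and 53.0 CPM under DMSO and 58.9, 60.9 and 69.7 CPM under NIF. The groups did not overlap in either population. The differences were 1.19-fold (log2 0.25, SE 0.0681, adjusted p = 0.0611) and 1.17-fold (log2 0.22, SE 0.0705, adjusted p = 0.104). In SUM159 libraries with the same replicate number deviated together. With that number as a block in edgeR both passed, with adjusted p-values of 0.0018 and 0.00759 and the same log2 values. The blocked fit called 13.3% and 13.2% of all genes.

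JAG1 behaved differently in SUM159 from SW620. Its CPM in SUM159 ALDHbr cells was 59.9, 62.2 and 57.1 under DMSO and 71.5, 63.6 and 67.1 under NIF. ALDHneg cells had JAG1 at 49.7, 40.2 and 40.8 CPM under DMSO and 53.1, 41.6 and 43.9 CPM under NIF. The ALDHbr groups lay just apart and the ALDHneg groups overlapped, with log2 changes of 0.18 (95% interval -0.03 to 0.38, adjusted p = 0.386) and 0.09 (-0.12 to 0.29, adjusted p = 0.721). With the block the ALDHbr value was 0.17 with an adjusted p of 0.076.

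HES1 in SUM159 followed the replicate number. It had 40.04, 36.7 and 23.6 CPM in ALDHbr cells under DMSO and 39.2, 38.8 and 22.3 CPM under NIF. In ALDHneg cells it had 50.7, 43.4 and 29.0 CPM under DMSO and 60.8, 40.4 and 21.4 CPM under NIF. Replicate 3 was the lowest in each of the 4 conditions and replicate 1 the highest. The log2 change with NIF was 0.00 in both populations, with 95% intervals of -0.68 to 0.68 and -0.67 to 0.67, and with the block it was -0.01 (SE 0.1, adjusted p = 0.969) and -0.06 (SE 0.0979, adjusted p = 0.762).

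The remaining SUM159 genes varied without a called change. NRARP went from 13.6 to 17.8 CPM under DMSO to 12.2 to 15.0 CPM under NIF in ALDHbr cells, and from 14.4 to 17.2 CPM to 11.5 to 16.1 CPM in ALDHneg cells, with log2 differences of -0.19 and -0.23 (adjusted p = 0.535 and 0.446). HES4 lay between 27.1 and 47.1 CPM and HEY1 between 2.14 and 6.15 CPM over the 12 libraries. NOTCH1 differed by 0.09 and 0.12, NOTCH2 by -0.07 and 0.01, NOTCH3 by -0.28 and 0.01 and DLL1 by -0.37 and 0.14 on the log2 scale, in ALDHbr and ALDHneg cells.

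The response to NIF was then compared between the lines by the difference of the log2 changes, SW620 minus SUM159. In ALDHbr cells 3 of 10 genes differed, against 23.1% of all genes, and in ALDHneg cells 5 of 10, against 22.4%. The 10 include DLL1, which had too few counts for the SW620 fit and passed the filter here through SUM159. Its SEs were 0.843 and 1.35, so that a difference could hardly be called. JAG1 differed most, by 1.87 (SE 0.136, adjusted p = 4.06e-10) in ALDHbr cells and by 1.90 (SE 0.136, adjusted p = 3.16e-10) in ALDHneg cells. JAG2 differed by 0.55 (adjusted p = 0.00218) and 0.52 (adjusted p = 0.00292), and HES4 by 0.65 (adjusted p = 0.0487) and 1.26 (adjusted p = 0.000355). HEY1 and NOTCH3 passed in ALDHneg cells, at 1.60 (adjusted p = 0.00754) and 1.19 (adjusted p = 0.0147). The NOTCH3 call was lost without SUM159 DMSO replicate 1, SW620 NIF replicate 2 or SW620 DMSO replicate 3, with adjusted p-values up to 0.06. For NRARP, which was called in SW620 and not in SUM159, the difference between the lines did not pass, at -0.25 (95% interval -0.57 to 0.08) and -0.24 (-0.57 to 0.09). The HES4 difference in ALDHbr cells lost its call in 8 of 17 alternatives, each without a library, with adjusted p-values up to 0.113.

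Whether ALDHbr and ALDHneg cells of a line responded differently was tested by the interaction. By edgeR no member passed in either line, against 0% of all genes in SUM159 and 0.00717% in SW620. At an unadjusted p under 0.05 there were 0 members in SUM159 and 1 in SW620, and DESeq2 called 0 in each. Over all genes 238 of 14953 in SUM159 and 771 of 13953 in SW620 had an unadjusted p under 0.05, and DESeq2 called 2 and 29. The member under 0.05 was HES4 in SW620, where the response in ALDHbr cells minus that in ALDHneg cells was -0.42 (95% interval -0.82 to -0.02, edgeR adjusted p = 0.898). For JAG1 the difference between SW620 populations was 0.07, with a 95% interval of -0.19 to 0.32.

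Between sorted populations, the largest difference was that of the ligand JAG2 in SUM159. Under DMSO 5 of the 10 genes differed in SUM159, against 23% of all genes, with NOTCH1, NOTCH2, JAG1 and JAG2 higher in ALDHbr cells and HEY1 lower. In SW620 3 of 9 differed, against 11.3% of all genes, with HES4 and NRARP higher in ALDHbr cells and JAG1 lower. Under NIF the counts were 4 of 10 in SUM159, against 21.9%, and 2 of 9 in SW620, against 6.67%. The DMSO libraries of these comparisons also served as controls for NIF above.

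In SUM159 the JAG2 values given above, 177 to 186 CPM in ALDHbr cells and 53.0 to 55.7 CPM in ALDHneg cells under DMSO, were far apart, at 3.34-fold (log2 1.74, SE 0.0711, adjusted p = 4.59e-10). Under NIF the ratio was 3.40-fold (log2 1.76, SE 0.0708, adjusted p = 3.49e-10). JAG1 was 1.37-fold higher in ALDHbr cells under DMSO (log2 0.45, SE 0.0967, adjusted p = 0.00309) and 1.46-fold higher under NIF (adjusted p = 0.000809). DLL1, at 3.18 to 4.85 CPM in ALDHbr cells and 2.45 to 3.89 CPM in ALDHneg cells under DMSO, overlapped between the populations.

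NOTCH1 in SUM159 had 115, 115 and 110 CPM in ALDHbr cells under DMSO and 86.4, 80.5 and 84.4 CPM in ALDHneg cells. Under NIF it had 111, 131 and 121 CPM and 87.5, 93.7 and 91.1 CPM. The populations did not overlap under either treatment, and the differences were 1.35-fold (adjusted p = 0.000127) and 1.33-fold (adjusted p = 0.00022). NOTCH2 had 257, 263 and 258 CPM in ALDHbr cells and 229, 182 and 224 CPM in ALDHneg cells under DMSO, a difference of 1.23-fold (log2 0.29, SE 0.0747, adjusted p = 0.0103). Under NIF the NOTCH2 difference of 0.21 missed the threshold (adjusted p = 0.0552) and passed with the replicate block (adjusted p = 0.00478). NOTCH3, at 2.96 to 3.71 CPM and 2.64 to 4.74 CPM under DMSO, overlapped between the populations.

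Among the targets in SUM159, HEY1 was lower in ALDHbr cells, with 3.03, 2.48 and 2.48 CPM against 4.85, 4.77 and 3.67 CPM in ALDHneg cells under DMSO. This was a difference of 1.66-fold (log2 -0.73, SE 0.237, adjusted p = 0.0375), which lost its call on leaving out any of 5 of the 6 libraries compared. With the replicate block it was -0.73 with an adjusted p of 0.0015. Under NIF HEY1 was 1.75-fold lower in ALDHbr cells (adjusted p = 0.0223), with overlapping ranges, and lost its call in 3 of 12 alternatives. HES1 was lower in ALDHbr cells in each of the 3 replicates under DMSO, by 0.30 on the log2 scale. It passed with the replicate block (SE 0.0993, adjusted p = 0.0237) and did not without it (SE 0.317, adjusted p = 0.559). Under NIF HES1 differed by -0.30 without the block (edgeR adjusted p = 0.556) and by -0.25 with it (adjusted p = 0.0578). Replicate 3 went the other way under NIF, with 22.3 CPM in ALDHbr and 21.4 CPM in ALDHneg cells. HES4 and NRARP differed by -0.11 each under DMSO, with overlapping libraries (adjusted p = 0.715 and 0.639).

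In SW620 JAG1 was lower and the targets NRARP and HES4 were higher in ALDHbr cells under DMSO. JAG1, with the DMSO values given above, was 1.29-fold lower in ALDHbr cells (log2 -0.37, SE 0.0861, adjusted p = 0.0165) and 1.23-fold lower under NIF (log2 -0.30, SE 0.0834, adjusted p = 0.0479). The groups did not overlap, but these calls were lost in 5 and 7 of 12 alternatives. NRARP was higher in ALDHbr cells, 1.27-fold under DMSO (log2 0.34, SE 0.0692, adjusted p = 0.00656) and 1.30-fold under NIF (log2 0.38, SE 0.0709, adjusted p = 0.00486), and kept its call in all 12 alternatives of each. HES4 was 1.47-fold higher under DMSO (log2 0.56, SE 0.137, adjusted p = 0.0199), a call lost in 6 of 12 alternatives. Under NIF HES4 differed by 0.14 (adjusted p = 0.56). These genes also varied with the long and short genes among the ALDHbr DMSO libraries. Relative to the mean of the 12 SW620 libraries, JAG1 (9.30 kb of merged exons) was at -1.31, -0.96 and -1.30 in replicates 1, 2 and 3, and NRARP (2.64 kb) at 0.40, 0.29 and 0.50. HES4 (1.12 kb) was lowest in replicate 2. The part of this variation in the JAG1, NRARP and HES4 differences was not tested.

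DMSO replicate 2 of SW620 ALDHbr cells set much of this comparison. Without it 6 of 9 genes were called in SW620 under DMSO, and 5487 of all genes instead of 1577. The genes gained were NOTCH1 (log2 -0.44, adjusted p = 0.00169), NOTCH2 (-0.79, adjusted p = 0.00058) and HES1 (0.21, adjusted p = 0.0218). With all libraries NOTCH1 was at -0.26 (adjusted p = 0.158), NOTCH2 at -0.46 (adjusted p = 0.121) and HES1 at 0.14 (adjusted p = 0.2). This is the library in which the long genes had a median of 0.056 against -0.186 and -0.152 in the other 2.

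**Figure D5:**
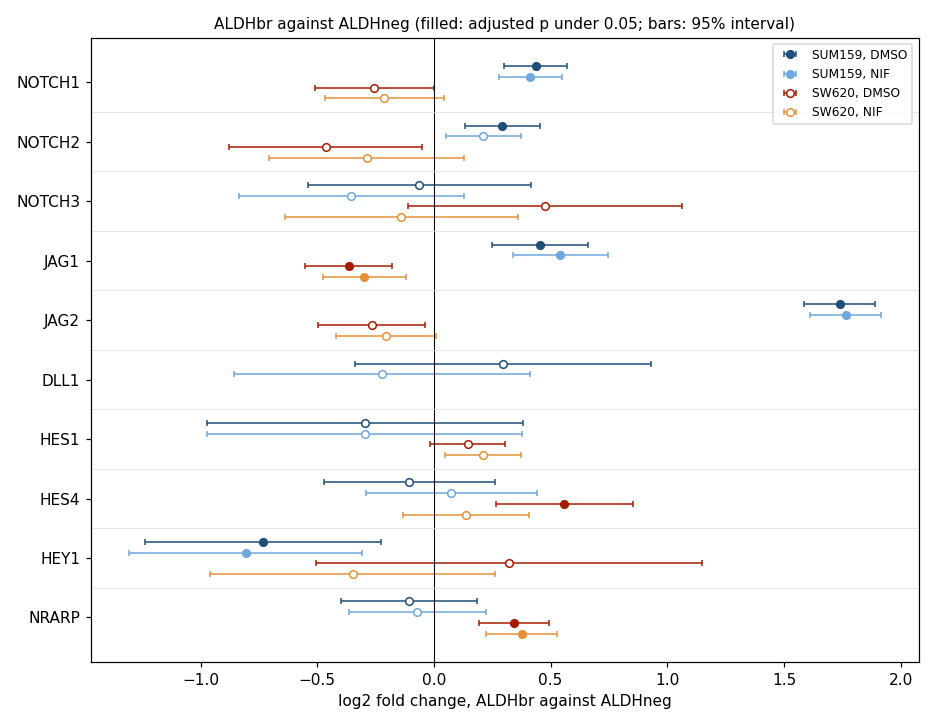
Log2 fold change of each gene in ALDHbr against ALDHneg cells (horizontal axis) for each line and treatment, with 95% intervals as bars and filled points where the adjusted p was under 0.05. JAG2 is near 1.7 in SUM159 under both treatments, JAG1 is above 0 in SUM159 and below 0 in SW620, and NRARP is above 0 in SW620.

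Beyond the 10 genes, 89 other genes of the pathway were in the table, in 5 lists. With NIF in SW620, 12 of 73 tested rose and 13 fell in ALDHbr cells, and 12 rose and 14 fell in ALDHneg cells, which is 34.2% and 35.6% called. Both shares were below those of all genes given above. With NIF in SUM159, 3.16% of all genes were called in ALDHbr cells and 3.3% in ALDHneg cells. Of the pathway genes 3 of 81 were called in ALDHbr cells, all lower with NIF, and 5 in ALDHneg cells, 2 higher and 3 lower. With the replicate block these counts were 17 (8 higher and 9 lower) and 18 (8 higher and 10 lower), against 13.3% and 13.2% of all genes in that fit. Between populations under DMSO, 18 were higher and 14 lower in ALDHbr cells of SUM159 (39.5% of 81, against 23% of all genes), and 7 higher and 12 lower in SW620 (26% of 73, against 11.3%). For SUM159 the replicate block gave 47 (29 higher and 18 lower), against 36% of all genes in that fit.

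Of 9 further receptors and ligands, 5 were tested in SW620. None was called with NIF in either population by edgeR or by DESeq2, nor had an unadjusted p under 0.05. Over all genes edgeR called 43.3% and 45.1% there. In SUM159, where 3.16% and 3.3% of all genes were called, 1 of 7 was called in each population. This was DNER, a membrane protein described as a Notch ligand, which fell by 0.61 in ALDHbr cells (SE 0.11, adjusted p = 0.00635) and by 0.58 in ALDHneg cells (SE 0.109, adjusted p = 0.00891). DLL4 and MFAP2 were higher in ALDHbr cells of SW620 under DMSO, by 0.94 and 1.09. They were 2 of 5 tested, against 11.3% of all genes, and both levels were low. DLL4 had a mean of 2.17 CPM in ALDHbr and 1.14 CPM in ALDHneg cells. MFAP2 had 0.827 and 0.392 CPM, from 19 to 47 and from 13 to 18 counts per library.

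Of 18 genes for receptor glycosylation and cleavage, 17 were tested in SW620. With NIF 4 rose and 3 fell in ALDHbr cells and 5 rose and 4 fell in ALDHneg cells. These calls made up 41.2% and 52.9% of those tested, against 43.3% and 45.1% of all genes. FURIN, the protease that matures the receptors in the secretory pathway, rose by 0.69 (SE 0.0517) and 0.62 (SE 0.0514). XXYLT1, a xylosyltransferase acting on the sugar chains of Notch, fell by 0.34 (SE 0.0629) and by 0.53 (SE 0.062). In SUM159 LFNG, a Fringe glycosyltransferase that alters ligand preference, fell by 0.45 with NIF in ALDHneg cells (adjusted p = 0.0458) and was higher by 0.69 in ALDHbr than in ALDHneg cells under DMSO (adjusted p = 0.000346). APH1B, a gamma-secretase subunit, was lower there, at -1.35 (adjusted p = 0.00716).

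Of 24 genes of the nuclear complex and co-repressors, 23 were tested in SW620. With NIF 2 rose and 6 fell in ALDHbr cells and 1 rose and 4 fell in ALDHneg cells. The shares called were 34.8% and 21.7%, against 43.3% and 45.1% of all genes. The Mastermind coactivator MAML2 fell by 0.70 (SE 0.214, adjusted p = 0.0165) and by 1.15 (SE 0.2, adjusted p = 0.000322). MAML2 was also lower in ALDHbr than in ALDHneg cells of SW620 under DMSO, at -0.81, and RBPJ at -0.27 (adjusted p = 0.0414). In SUM159 the co-repressor TLE1 fell with NIF in ALDHbr cells by 0.47 (adjusted p = 0.0159), and MAML3 and KAT2A rose in ALDHneg cells by 0.43 and 0.24. TLE4 was lower in ALDHbr cells of SUM159, at -1.40 (adjusted p = 5.27e-06).

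Of 18 genes for endocytosis, ubiquitin ligases and other regulators, 16 were tested in SW620. With NIF 2 rose and 1 fell in ALDHbr cells and 1 rose and 4 fell in ALDHneg cells. Both shares, 18.8% and 31.2%, were below the 43.3% and 45.1% of all genes. NUMBL, a relative of the Notch inhibitor NUMB, rose by 1.00 (SE 0.0727) and 0.74 (SE 0.0719), and DTX4, a Deltex ubiquitin ligase, fell by 0.46 and by 0.72. NEURL1B, a Neuralized-type ligase for ligands, fell with NIF in ALDHneg cells of both lines, by 1.09 in SW620 (adjusted p = 0.000843) and by 1.47 in SUM159 (adjusted p = 0.00798). In SUM159 under DMSO, NEURL1B differed by -2.66 on the log2 scale in ALDHbr cells (SE 0.303, adjusted p = 1.18e-05).

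Of 20 other described targets, 12 were tested in SW620. With NIF 4 rose and 3 fell in ALDHbr cells and 5 rose and 2 fell in ALDHneg cells. That was 58.3% of those tested in each population, against 43.3% and 45.1% of all genes. CDKN1A, which encodes the cell cycle inhibitor p21 and has other regulators such as p53, rose by 1.91 (SE 0.0808, adjusted p = 4.11e-10) and 2.15 (SE 0.0808, adjusted p = 1.06e-10). CCND1, the cyclin D1 gene, rose by 0.48 and 0.65, while GATA3 fell by 0.37 and by 0.65. None of the 15 targets tested in SUM159 was called with NIF in either population by edgeR, against 3.16% and 3.3% of all genes. At an unadjusted p under 0.05 there were 4 in each. DESeq2 called 2 in each, against 875 and 862 of all 14953 genes tested. The replicate block called 4 in each, 3 of them higher, against 13.3% and 13.2% of all genes. HES6 was higher by 0.90 in ALDHbr cells of SW620 under DMSO (adjusted p = 0.00211), and BHLHE41 was lower in ALDHbr cells of SUM159, at -1.28 (adjusted p = 0.00439).

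The genes whose log2 CPM was most like that of a leading member over the 12 libraries of a line were taken by Pearson's r. The libraries share depth, treatment and sort, so that r is given as a description. In SUM159 they were SDC1 (0.993) and CTSC (0.992) for JAG2, and BTG1 (0.944) and CCNL1 (0.942) for HES1. In SW620 they were ZBED6 (0.988) and REV3L (0.987) for NOTCH1, ETS1 (0.998) and VLDLR (0.997) for JAG1, and IDH2 (0.988) and AKR7A3 (0.987) for NRARP.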

How the data were processed

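Total RNA was isolated from sorted cells and sequenced with a stranded total RNA protocol. The table deposited by the authors holds raw counts for each gene, as whole numbers without normalization, for 28307 genes, of which 4579 had no count. The submitters' processing notes name STAR, FastQC and GRCh38. The counting tool, its strand setting and the annotation are not given in the sources used here, so that overlapping, antisense and near-identical genes are uncertain. Replicates are libraries of independent experiments per the methods. No 2 libraries of a condition agreed within sampling noise (chi-square per gene 1.95 to 43.1). The spread was uneven: pairs of SW620 ALDHneg libraries lay at 1.95 to 5.05, and those of SW620 ALDHbr cells under DMSO at 43.1, 6.18 and 33.5. The groups of a line nevertheless shared an estimate of the spread in the reported fit.

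The analysis used edgeR 4.0.16 under R 4.3.3. Each line was fitted on its 12 libraries in 4 groups, and comparisons between lines on all 24, after filterByExpr and TMM normalization, with quasi-likelihood F tests, Benjamini-Hochberg adjustment over all genes tested and a threshold of 0.05. CPM values use the TMM-adjusted sizes of the line's fit, log2 CPM a prior count of 2, and CPM per kb the fit of all libraries with merged exons of the GENCODE annotation. Fold changes are fitted by edgeR, and 95% intervals use their standard errors.

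The members, the lists and the rule for naming genes were chosen with earlier results of these data known. All 10 members were named, and from each list up to 2 of the highest and 2 of the lowest called genes per comparison. Likeness was restricted to the receptor, ligand and target with the highest mean log2 CPM in each line. The result for the SUM159 receptor is not reported here.

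Same-numbered SUM159 libraries deviated together from their group means (correlations of 0.125 to 0.451, all 18 comparisons over 0.1), which pairs them. The reported values come from the fit without a block, and the blocked value is given where it changes the call of a member. For the lists, blocked counts are given for all of them together and for the other described targets with NIF. The other list calls come from the fit without a block, and the block called more genes in most lists. In SW620 1 of 18 passed 0.1. Alternatives were a replicate block, a fit of only the groups compared, each library left out, no filter, library-size scaling or RLE size factors, and DESeq2 1.42.0. The steps were tested on simulated counts. The windows of gene length were chosen after the data had been examined.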

Additional observations from a re-analysis of the deposited data

Results flagged for a closer look

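Over all genes, 23.1% in ALDHbr cells and 22.4% in ALDHneg cells passed a test of the difference in NIF response between lines. Among the 10 members the response differed between SW620 and SUM159 in 8 cases, 3 in ALDHbr cells and 5 in ALDHneg cells. As log2 differences, SW620 minus SUM159, these were JAG1 at 1.8673, JAG2 at 0.549 and HES4 at 0.6522 in ALDHbr cells. In ALDHneg cells they were NOTCH3 at 1.1942, JAG1 at 1.8969, JAG2 at 0.5238, HES4 at 1.2637 and HEY1 at 1.601. The edgeR adjusted p was lowest for JAG1 (3.16e-10 in ALDHneg cells) and highest for HES4 in ALDHbr cells (0.0487). The NOTCH3 difference in ALDHneg cells lost its call in 3 of 17 alternatives and the HES4 difference in ALDHbr cells in 8 of 17, each without 1 library. The JAG1, JAG2 and HES4 libraries of SW620 did not overlap between NIF and DMSO in either population.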

How the results depend on the processing

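No called member reversed its direction in any alternative, and the count of members called stayed within 1.5 times the reported one in 156 of 175 recomputed counts. Among the 175 were the interactions of both lines, in which no member was called in any of 17 alternatives each, so that their counts could hardly move. The 19 that moved were in the SUM159 comparisons of NIF with DMSO and the SW620 comparisons of populations. In SUM159 the count with NIF was 0 in ALDHbr cells and 1 with no filter, with the replicate block or with DESeq2. Leaving out a library gave 0 to 1, the 1 without NIF replicate 1. In SUM159 ALDHneg cells it was 0, and 1 with the replicate block or DESeq2. In SW620 ALDHbr against ALDHneg cells under DMSO it was 3, and 1 in a fit of only the groups compared. Leaving out a library gave 1 to 6, the 1 without ALDHbr or ALDHneg replicate 1 or 3. Under NIF it was 2, and 1 with library-size scaling or the replicate block, and leaving out a library gave 1 to 2. The replicate block, which the SW620 numbers do not support, cost JAG1 its call between SW620 populations under NIF (edgeR adjusted p = 0.0822) and called 1 more member in SUM159 under DMSO and under NIF between populations. It called HEY1 in the difference of the NIF response between lines in ALDHbr cells (log2 1.01, adjusted p = 0.0477). Directions of members that no test called were not counted as reversals. Where a call changed, the cause was not tested.

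Over all genes, the block called 1994 and 1970 with NIF in SUM159 ALDHbr and ALDHneg cells and 5388 and 5270 between populations, DESeq2 875 and 862 with NIF, and leaving out a library 222 to 322 and 192 to 584, against 473 and 493. A fit of only the groups compared called 292 with NIF in SUM159 ALDHneg cells and 729 between SW620 populations under DMSO. Leaving out a library gave 712 to 5487 there and 494 to 996 under NIF. Interactions were called for 0 to 6 genes in SUM159 and 1 to 29 in SW620 across alternatives. Library-size scaling moved the median log2 difference between lines from -0.05 to -0.20 over all genes. Depth limits HEY1, NOTCH3 and DLL1 in SW620.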
